A study of Mus musculus with 35 samples.

Results

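miR-221 (mmu-miR-221) and miR-222 (mmu-miR-222) are a pair of small regulatory RNAs, and they were taken from the array layout by name, as 2 of the 376 miRNAs measured in mouse liver. Both gave a threshold cycle in all 35 arrays. The livers came from female Big Blue transgenic mice (provider Stratagene), a strain that carries a reporter for scoring mutations and that every group shared. The mice were 6 months old when they received 1 intraperitoneal injection of N-ethyl-N-nitrosourea (ENU), an alkylating agent that causes mutations, at 120 mg/kg, or of the vehicle dimethylsulfoxide (DMSO). ENU-treated livers were taken from 5 mice each on days 1, 3, 7 and 15 after treatment, and from 4 mice each on days 30 and 120, and a day is written PTD for post-treatment day. The 7 DMSO-treated controls, 3 labelled day 1 and 4 labelled day 30, formed a single group. The published methods give the counts for both control days the other way round, and the labels were followed here. Each mouse gave 1 array, so the spread between samples holds differences between animals and between assay runs, which cannot be told apart.

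A miRNA guides a silencing complex to messenger RNAs that pair with its seed, the short stretch near its 5′ end, and lowers the protein made from them. miR-221 and miR-222 are processed from neighbouring hairpins on the X chromosome, share a seed, and are known for repressing the cell cycle inhibitor p27, the product of Cdkn1b. Both are widely reported as raised in liver cancer, and both are also abundant in the cells that line blood vessels.

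The mature sequences show what the pair shares and where it departs. They are given 5′ to 3′ from RefSeq (build GRCm38.p6), with the seed (bases 2 to 8) in capitals, for the 3p arms. The array's names carry no arm suffix, and taking them as the 3p arms is an assumption.
miR-221: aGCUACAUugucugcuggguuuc
miR-222: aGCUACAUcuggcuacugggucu
Both were 23 bases long, their first 8 bases were identical, and 11 of 23 positions matched when they were laid side by side without gaps. The seed GCUACAU occurred in 3 of 1738 mature mouse miRNAs in the RefSeq table (0.173%), and these 2 were the only ones of the 3 with an assay on the array.

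The hairpins show how close the 2 genes lie. miR-221 is at chrX:19146307-19146329 and miR-222 at chrX:19146901-19146923, both on the minus strand of GRCm38.p6, and 504 bases separate the hairpins. Mature bases are in capitals here.
Mir221: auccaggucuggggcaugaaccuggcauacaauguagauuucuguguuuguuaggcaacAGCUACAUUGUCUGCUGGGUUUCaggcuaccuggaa
Mir222: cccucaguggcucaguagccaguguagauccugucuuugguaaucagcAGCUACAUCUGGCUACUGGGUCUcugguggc
RefSeq lists each as a miRNA gene of its own.

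The threshold cycle (Ct) is the PCR cycle at which a well crosses a fixed fluorescence level, so 1 cycle less stands for about 1 doubling more of RNA. Over the 35 arrays, the mean Ct was 25.2 for miR-221 (place 90 of 376 in order of Ct) and 26.8 for miR-222 (place 121). Since each Ct comes from its own assay, these do not compare the amounts of the 2 miRNAs. miR-122, the defining miRNA of hepatocytes, was detected in every liver, with a Ct between 13.4 and 18.9. Levels are given below as -ΔCt, which is the mean Ct of 4 reference small RNAs (snoRNA251, snoRNA202, snoRNA142 and U6) minus the Ct of the miRNA on the same array. It is a log2 scale on which a higher value stands for more RNA. In pieces of whole liver, fewer cells of a type and less RNA per cell cannot be told apart.

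The files show that the arrays were run in 3 periods. Run period 1 held PTDs 3, 7 and 15 in full, PTD 1 apart from replicate 4, and the 3 controls labelled day 1. Run period 2 held PTDs 30 and 120 in full, replicate 4 of PTD 1 and 2 controls labelled day 30, and run period 3 held only the other 2 controls. The day label of the controls and the run period therefore cannot be told apart, and results are given against all 7 controls and against those from the matching run period.

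miR-222 was higher in ENU-treated liver than in the 7 controls at PTDs 7 and 15, by 2.53-fold and 3.22-fold, and did not exceed the highest control in any sample of PTDs 30 and 120. In the controls labelled day 1, its -ΔCt was -5.07, -6.08 and -4.13, and in those labelled day 30 it was -5.36, -5.83, -6.12 and -6.29. The control labelled day 1 with -4.13 stood above the other 6. At PTD 7, the 5 samples were at -4.23, -4.00, -4.11, -4.77 and -3.97, so that 3 of them exceeded every control. At PTD 15 they were at -3.77, -4.30, -3.61, -3.88 and -3.78, of which 4 exceeded every control. Neither group was fully separate from the controls, because of that single control.

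The log2 fold change of miR-222 was 1.34 ± 0.38 (SE, limma, adjusted p = 0.0482; exact permutation p = 0.00884) at PTD 7 and 1.69 ± 0.37 (SE, limma, adjusted p = 0.0154; exact permutation p = 0.00505) at PTD 15. At the adjusted threshold of 0.05, 7.45% of the 376 miRNAs were called at PTD 7 (1.6% as higher) and 12.2% at PTD 15 (7.71% as higher). The fold change of miR-222 was the 15th from the top at PTD 7 and the 13th at PTD 15. The call at PTD 7 was marginal. It was lost when any of 10 of the 12 samples was left out, with values between 1.21 and 1.48 for those runs, while the call at PTD 15 was kept in each of its 12 such runs.

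At PTD 3, miR-222 was at -4.53, -4.46, -4.28, -3.21 and -4.75, with 1 sample above every control. Its log2 fold change of 1.31 ± 0.42 (SE) did not pass the adjusted threshold (limma, adjusted p = 0.351), at which 0.798% of the miRNAs were called. The study counted as a differentially expressed miRNA (DEM) one with an unadjusted p under 0.01 and a fold change above 2. With the limma p in that rule, miR-222 passed at PTDs 3, 7 and 15, but with the kind of test the methods name, run here on ΔCt or on linear values, it passed only at PTDs 7 and 15. With the limma p, the rule took 1.33% of the miRNAs as higher at PTD 3, 2.39% at PTD 7 and 6.65% at PTD 15.

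PTD 1 gave miR-222 values of -4.72, -5.08, -4.45, -5.13 and -4.41, all above the control mean and none above every control. The log2 fold change was 0.80 ± 0.40 (SE; limma, adjusted p = 0.669). No miRNA was called at PTD 1 by limma (0%), with 19 of 376 (5.05%) below 0.05 before adjustment.

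On the late days miR-222 did not differ from the controls at the adjusted threshold, with a mean of -5.41 at PTD 30 and -5.88 at PTD 120, beside -5.55 in the controls. The 4 values were -5.36, -5.32, -4.63 and -6.35 at PTD 30, and -6.49, -5.45, -5.70 and -5.89 at PTD 120. The log2 fold changes were 0.14 (95% confidence interval -0.85 to 1.13) and -0.33 (-1.26 to 0.60), with adjusted p = 0.873 and 0.697 in limma. At PTD 30, 0.532% of the miRNAs were called, and at PTD 120 none (0%), with 33 of 376 (8.78%) below 0.05 before adjustment. For all 376 miRNAs the median shift was 0.54 and 0.46 on these days, and miR-222 was in place 296 and 345 from the top.

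**Figure D1:**
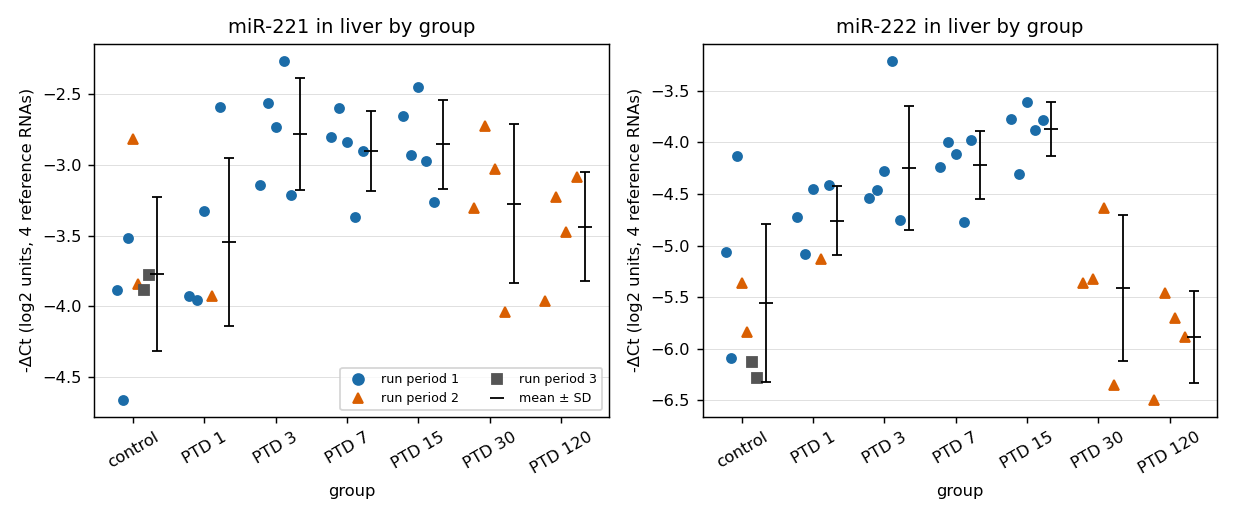
Level of miR-221 (left) and miR-222 (right) in each liver as -ΔCt in log2 units, by group, with symbols for the run period of the array and bars for the group mean ± SD. PTDs 3, 7 and 15 belong wholly to run period 1, and 4 of the 5 miR-222 values at PTD 15 lie above every control.

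Against the 7 controls, miR-221 did not pass the adjusted threshold at any PTD in limma, although its p before adjustment was under 0.05 at 3 of the 6 PTDs (PTDs 3, 7 and 15, where 10.4%, 24.5% and 29% of the miRNAs had such a p). Its -ΔCt was -3.89, -4.66 and -3.52 in the controls labelled day 1, and -2.82, -3.84, -3.89 and -3.78 in those labelled day 30. A control labelled day 30, at -2.82, stood above the rest. The highest ENU values were at PTD 3, where the samples were at -3.14, -2.56, -2.73, -2.26 and -3.21, and 3 of them exceeded every control.

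At PTD 7, miR-221 was at -2.80, -2.59, -2.84, -3.37 and -2.90, and at PTD 15 at -2.65, -2.93, -2.44, -2.97 and -3.26. In both groups every sample was above the control mean and 2 of 5 exceeded every control. The log2 fold changes were 0.99 ± 0.34 (SE; limma, adjusted p = 0.351) at PTD 3, 0.87 ± 0.31 (SE; limma, adjusted p = 0.109) at PTD 7 and 0.92 ± 0.31 (SE; limma, adjusted p = 0.0728) at PTD 15. None reached the 2-fold limit of the DEM rule, the closest being 1.98-fold at PTD 3. The exact permutation p for these single values was 0.0114, 0.0139 and 0.0114.

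At PTD 1, miR-221 was at -3.92, -3.96, -3.32, -3.93 and -2.59, and only the last exceeded every control. PTD 30 gave -3.30, -2.72, -3.03 and -4.04, and PTD 120 gave -3.96, -3.23, -3.47 and -3.08, within or just above the range of the controls. The log2 fold changes were 0.23 (95% confidence interval -0.58 to 1.03), 0.50 (-0.33 to 1.32) and 0.33 (-0.44 to 1.11). Their adjusted p in limma was 0.848, 0.480 and 0.656.

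In order of mean level, miR-221 ran from PTD 3 at -2.78 through PTDs 15, 7, 30, 120 and 1 to the control at -3.77, a span of 0.99. miR-222 ran from PTD 15 at -3.87 through PTDs 7, 3, 1 and 30 and the control to PTD 120 at -5.88, a span of 2.02. No neighbours in either order differed beyond their spread, with exact permutation p between 0.230 and 0.825 for miR-221 and between 0.0873 and 0.960 for miR-222.

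**Figure D2:**
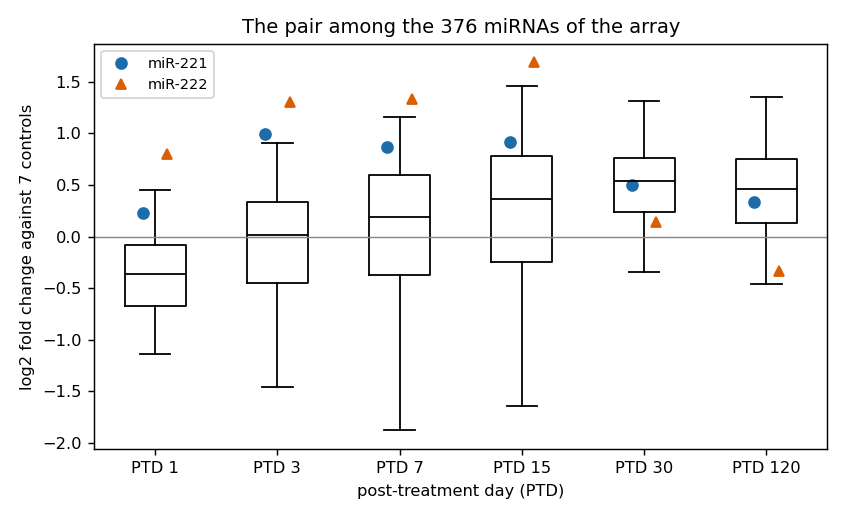
Log2 fold change against the 7 controls of the 376 miRNAs at each PTD (box, quartiles with the median; whiskers, 5th to 95th percentile) with miR-221 as circles and miR-222 as triangles. miR-222 lies above the upper whisker from PTD 1 to PTD 15 and below the median, at places 296 and 345 from the top, at PTDs 30 and 120.

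With the comparison held within run period 1, the fold changes of miR-222 at PTDs 1, 3, 7 and 15 were lower. In run period 1, PTD 3 stood 0.84 above the controls (exact permutation p = 0.232), PTD 7 stood 0.87 above them (exact permutation p = 0.0536) and PTD 15 stood 1.22 above them (exact permutation p = 0.0357), in log2 units. In the limma fit of the same samples, PTD 15 was called (adjusted p = 0.0362) and PTD 7 was not (adjusted p = 0.112). In these fits 48.4% of all miRNAs were called at PTD 7 (40.7% as higher) and 53.7% at PTD 15 (47.9% as higher). The whole array had a median shift of 0.84 and 1.05, and miR-222 was in place 179 and 143 of 376, in the middle of the array.

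For miR-221 the same restriction gave higher estimates at PTDs 1, 3, 7 and 15, and lower ones in run period 2 at PTDs 30 and 120. In run period 1 its log2 fold changes for PTDs 3, 7 and 15 were 1.24, 1.12 and 1.17, and in each group all 5 ENU samples lay above all 3 controls, as they did for 20.7%, 35.4% and 43.9% of all miRNAs at these days. The exact permutation p was 0.0179 each time, the smallest that 5 against 3 samples allow. In limma, miR-221 was called at PTD 7 (adjusted p = 0.0253) and at PTD 15 (adjusted p = 0.0188), but not at PTD 3 (adjusted p = 0.112). It was in place 133 of 376 at PTD 7 and 161 at PTD 15, and in place 57 at PTD 3, where 0.266% of the miRNAs were called. For PTDs 30 and 120, against the 2 controls of run period 2, the log2 fold changes were 0.06 and -0.11 for miR-221, and 0.18 and -0.29 for miR-222, and for PTD 1, within run period 1, they were 0.57 for miR-221 (exact permutation p = 0.371) and 0.43 for miR-222 (exact permutation p = 0.486). None of these passed the adjusted threshold in limma, where 0% of the miRNAs were called.

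**Figure D3:**
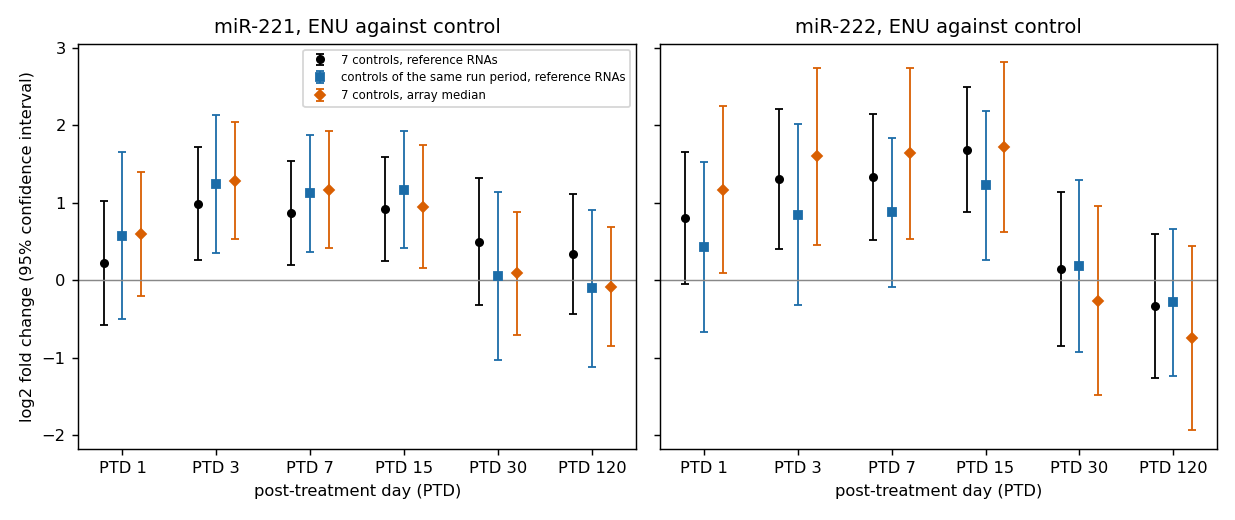
Log2 fold change of miR-221 (left) and miR-222 (right) at each PTD with 95% confidence intervals from limma, against all 7 controls (circles), against controls from the matching run period only (squares), and against all 7 controls on the array median scale (diamonds). Within the run period, the value of miR-222 at PTD 15 falls from 1.69 to 1.22, and that of miR-221 rises from 0.92 to 1.17.

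Before normalization, the Ct of the pair itself differed little between PTDs 7 and 15 and the controls of run period 1. The reference RNAs and the median miRNA of the array both had a higher Ct at these PTDs. Against the other 4 controls the larger gap was in the Ct of miR-222. For miR-222 the mean Ct was 26.3 in the 3 controls, 26.5 for PTD 7 and 26.4 for PTD 15, and for miR-221 it was 25.3, 25.2 and 25.4. On the same arrays, the 4 reference RNAs had a mean Ct of 21.2 in the controls, 22.3 at PTD 7 (exact permutation p = 0.0357) and 22.5 at PTD 15 (exact permutation p = 0.0179). The median miRNA Ct averaged 29.0 in these controls and 29.8 at both PTD 7 and PTD 15. In the 4 controls of run periods 2 and 3, the reference RNAs were at 22.1, miR-222 at 28.0 and miR-221 at 25.7. With levels taken relative to the array's median miRNA Ct (the array median scale), the log2 fold changes of miR-222 in run period 1 were 0.62, 0.66 and 0.74 at PTDs 3, 7 and 15 (exact permutation p = 0.357, 0.339 and 0.214). Those of miR-221 were 1.02, 0.90 and 0.69 (exact permutation p = 0.0179, 0.0714 and 0.214). Against all 7 controls, the array median scale gave 1.64 and 1.72 for miR-222 at PTDs 7 and 15, both called higher (limma, adjusted p = 0.0235 and 0.0289), as were 28.5% and 18.1% of all miRNAs, and the median of all miRNAs then stood at 0.49 and 0.39.

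The reverse transcription control wells give a measure that no miRNA enters, and it differed between PTDs 7 and 15 and the controls of run period 1, but not in 1 direction from all controls. The Ct of the first reverse transcription control well minus that of the second was between -0.26 and -0.20 in the controls of run period 1, between -0.02 and 0.18 at PTD 7, and between -0.03 and 0.21 at PTD 15. It was between -0.23 and -0.15 in the 2 controls of run period 2, between 0.28 and 0.30 in the 2 of run period 3, and between -0.29 and 0.17 at PTD 3. Its part in the values of the pair was tested only as a covariate. With this difference as a covariate, miR-222 had a log2 fold change of 1.66 at PTD 7 and 1.90 at PTD 15 against the 7 controls (limma, adjusted p = 0.0145 and 0.00590). At PTDs 1 and 3 it was 0.60 and 1.38, and neither was called. Among the controls the difference was above 0 only in the 2 arrays of run period 3, which also had the lowest miR-222 (-6.12 and -6.29). The fit therefore cannot separate it from the run period.

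**Figure D4:**
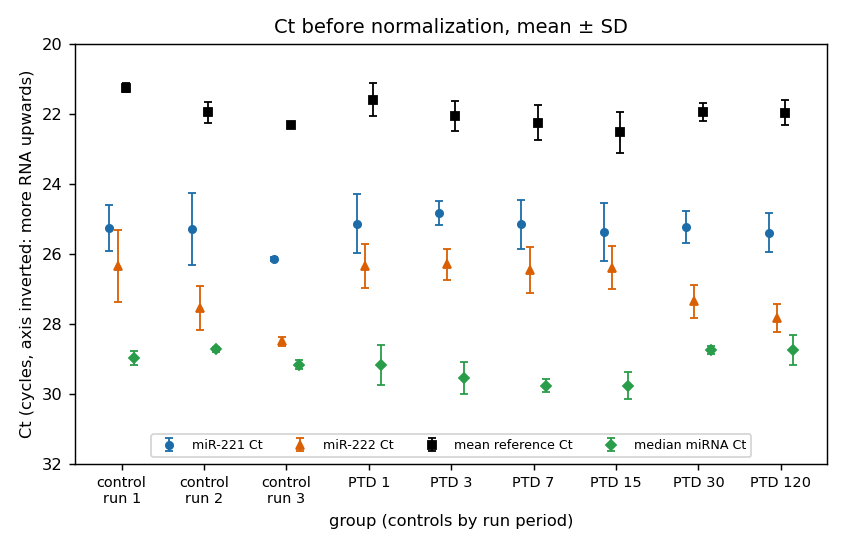
Mean Ct ± SD before normalization of miR-221, miR-222, the 4 reference RNAs (mean per array) and all miRNAs (median per array), by group, with the controls split by run period and the Ct axis inverted so that more RNA is higher. From the controls of run period 1 to PTD 15, the reference RNAs go from 21.2 to 22.5 and the median miRNA from 29.0 to 29.8, while miR-222 is at 26.3 and 26.4. In the controls of run periods 2 and 3 together, the reference RNAs average 22.1 and miR-222 averages 28.0.

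Because both miRNAs were measured on every array, their own Ct difference needs no reference RNA. It is the Ct of miR-221 minus that of miR-222, and a higher value stands for more miR-222 relative to miR-221, although its absolute size depends on the assays. In the controls it was -1.78 ± 0.73 (SD, n = 7). In the ENU groups its mean was -1.21, -1.47, -1.32 and -1.02 at PTDs 1, 3, 7 and 15, and -2.14 and -2.45 at PTDs 30 and 120. Against the 7 controls, the differences of 0.57, 0.32, 0.47, 0.77, -0.36 and -0.66 from PTD 1 to PTD 120 did not pass the exact permutation test, with p between 0.0606 and 0.394.

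The values were also set out by run period, and the ranges overlapped. In run period 1, the 22 arrays ranged from -1.90 to -0.52 with a mean of -1.23. In run periods 2 and 3, the 13 arrays ranged from -2.81 to -1.20 with a mean of -2.22, and 11 of the 22 lay above the highest of the 13. That highest array was replicate 4 of PTD 1, and without it the highest was -1.60, with 20 of the 22 above it. Among vehicle-treated mice, the 4 controls of run periods 2 and 3 averaged -2.32 and the 3 of run period 1 averaged -1.07, a difference of -1.25 with no overlap (exact permutation p = 0.0286, the smallest that 4 against 3 allow). Within the same run period, ENU and control samples differed by -0.15, -0.40, -0.25, 0.05, 0.13 and -0.18 from PTD 1 to PTD 120, with exact permutation p between 0.232 and 0.8. Day and run period cannot be told apart here. These comparisons rest on 4 or 5 ENU samples against 2 or 3 controls.

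**Figure D5:**
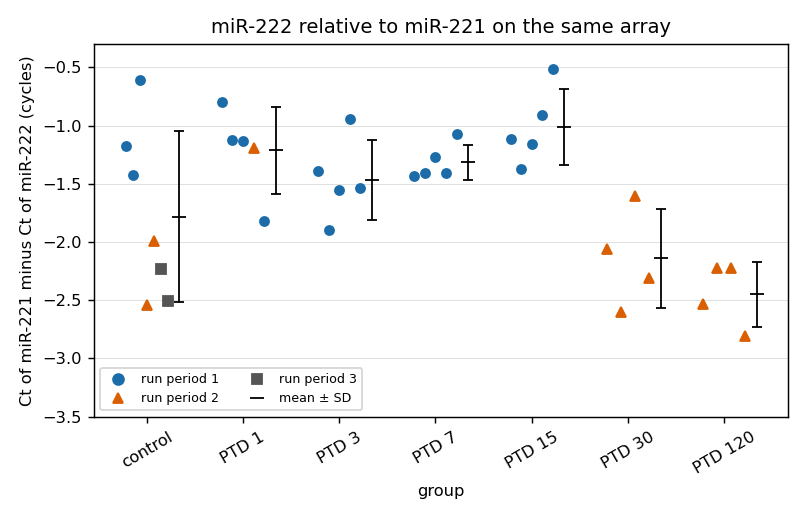
Ct of miR-221 minus Ct of miR-222 on the same array, in cycles, for each liver by group, with symbols for the run period and bars for the group mean ± SD. Controls of run period 1 average -1.07 and those of run periods 2 and 3 average -2.32, and the highest array of run periods 2 and 3 is replicate 4 of PTD 1 at -1.20.

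For each miRNA alone, the difference between these controls depended on the scale. From run period 1 to run periods 2 and 3, miR-222 differed by -0.81 (exact permutation p = 0.171) and miR-221 by 0.44 (exact permutation p = 0.486) with the reference RNAs. On the array median scale they differed by -1.71 (exact permutation p = 0.0571) and -0.47 (exact permutation p = 0.371).

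Across samples the pair varied together, in values that share the reference RNAs of each array. Pearson's r between miR-221 and miR-222 was 0.72 over all 35 samples, 0.62 after the mean of each group was removed, 0.83 over the 22 of run period 1 and 0.58 over the 11 of run period 2. On the array median scale, r was 0.85 in run period 1 and 0.73 in run period 2. Without the 2 samples farthest from the median, r on the reference RNA scale was 0.68 in run period 1 and 0.21 in run period 2. On the array median scale it was then 0.71 and 0.61. The r of 0.58 in run period 2 did not pass a permutation test (permutation p = 0.0631).

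Of the 200 miRNAs with a Ct in every sample and a mean Ct of at most 30, the 5 most like miR-221 over the 35 samples were miR-185 (r = 0.85), miR-15a (0.83), miR-331-3p (0.77), miR-186 (0.76) and miR-34b-5p (0.75), with miR-222 in place 7. The median r of the candidates was 0.29. Most like miR-222 were miR-674 (r = 0.83), miR-423-5p (0.77), miR-34b-5p (0.72), miR-221 (0.72) and miR-30c (0.71), against a median of 0.02. The order depended on the samples and the scale: r with miR-222 was 0.83 for miR-221, 0.74 for miR-674 and 0.67 for miR-30c in run period 1, 0.58, 0.41 and 0.77 in run period 2, and 0.87, 0.91 and 0.88 over all samples on the array median scale. miR-423-5p and miR-34b-5p had an r with miR-222 of 0.60 and 0.74 in run period 1 and 0.33 and 0.45 in run period 2. For miR-221, the 5 in the order named had an r of 0.84, 0.87, 0.82, 0.78 and 0.84 in run period 1, and 0.86, 0.91, 0.80, 0.81 and 0.30 in run period 2, where miR-34b-5p was thus the least alike.

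A list of other miRNAs widely reported as raised in liver cancer was set beside the pair. Of 19 on the array, 4 were called higher at PTD 15 and none lower, beside 7.71% of all miRNAs called higher. They were miR-130b (log2 fold change 1.49) and miR-301a (1.21), which share a seed, and miR-106b (1.09) and miR-93 (1.04), which come from 1 cluster and repress the cell cycle inhibitor p21. Their adjusted p in limma was 0.0162, 0.0234, 0.0229 and 0.0396. The median of the 19 was 0.79, beside 0.36 for all miRNAs. None of the 19 was called at PTD 7 in limma, where the median was 0.61 beside 0.19 for all and 7 of 19 were higher with a p under 0.05 before adjustment, beside 12% of all miRNAs. At PTD 15, 9 of 19 were, beside 20.5% of all. At PTD 30, 6 of 19 were, beside 10.6% of all in either direction, and the median was 0.70 beside 0.54 for all. In the fits against the 7 controls, all 19, and all members of the 2 lists that follow, lay below miR-222 at PTDs 1, 3, 7 and 15, while at PTDs 30 and 120 none of the 19 did. Within run period 1, miR-222 did not stand high on those early days. It was in place 119, 140, 179 and 143 of 376, and at PTD 7 its 0.87 stood beside a median of 0.84 for all miRNAs.

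Of 25 miRNAs widely reported as lowered in liver cancer, let-7b, a member of a growth-restraining family, was called at PTD 15 (log2 fold change 1.06; limma, adjusted p = 0.0421), and it was higher, beside 7.71% of all miRNAs called higher. Against the 7 controls with the reference RNAs, no other PTD gave a call in limma. Before adjustment, 2 of the 25 were higher with a p under 0.05 at PTD 7 and 5 at PTD 15, beside 12% and 20.5% of all miRNAs. The median of the 25 at PTD 15 was 0.45. Among 10 other miRNAs reported to target p21 or p27, 2 were called higher at PTD 15, beside 7.71% of all miRNAs. They were the same miR-106b and miR-93, both listed for p21, and none listed for p27 was called. Before adjustment, 4 of the 10 were higher with a p under 0.05 at PTD 15, beside 20.5% of all. In the other direction, 1 was lower, miR-196a, which is listed for p27 (log2 fold change -1.02; limma, adjusted p = 0.102). On the array median scale, the calls of higher miRNAs at PTD 15 became 11 of 19, 4 of 25 and 6 of 10, beside 18.1% of all miRNAs. With only miRNAs of a mean Ct of at most 30 tested, they were 7, 1 and 2, beside 18.5% of the 205 tested. With controls labelled day 30 they fell to 1, 0 and 0, beside 3.19% of all. Against the controls of run period 1 they became 16, 17 and 9, beside 47.9% of all, and at PTD 7 they were 16, 14 and 8, beside 40.7% of all.

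Markers of the cell types of liver were followed beside the pair, and their part in its values was not tested. The 2 endothelial markers, miR-126-3p and miR-126-5p, had a mean -ΔCt between 1.89 and 4.23 in the controls, 2.77 and 4.24 at PTD 7 and 3.44 and 4.56 at PTD 15, and neither was called at any PTD in limma nor had an unadjusted p under 0.05. The mean of 5 leukocyte markers was between -3.73 and -2.46 in the controls, -3.81 and -2.78 at PTD 7 and -3.64 and -2.50 at PTD 15, with 0 called by limma at any PTD. Before adjustment, 2 of the 5 were lower at PTD 1 with a p under 0.05, 1 was lower at PTD 7 and at PTD 15, beside 5.05%, 24.5% and 29% of all miRNAs in either direction, and 3 were higher at PTD 120, beside 8.78% in either direction (miR-142-3p by 1.35, miR-142-5p by 1.46 and miR-223 by 1.12 on the log2 scale). The 3 erythroid markers were at -3.58 to -3.05 in the controls and -2.99 to -1.62 at PTD 15, where miR-144, an erythroid miRNA, was called higher (log2 fold change 1.52; limma, adjusted p = 0.0162), beside 7.71% of all miRNAs. Before adjustment, 1 of the 3 was higher with a p under 0.05 at PTD 7 and 2 at PTD 15, beside 12% and 20.5% of all, with miR-451 at 1.04 (limma, adjusted p = 0.0635). None of the 3 hepatocyte, 3 stromal and 3 biliary markers was called by limma at any PTD. Before adjustment, 1 stromal marker was higher with a p under 0.05 at PTD 15 (miR-214, 0.66), beside 20.5% of all miRNAs. At PTD 30, 1 biliary marker was higher with such a p (miR-200a, 1.13), beside 10.6% of all in either direction, while miR-141 of the same list was at -0.61.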

How the data were processed

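For 35 mice, liver small RNA (below 200 nucleotides) was assayed by real-time PCR, with 1 array of 384 wells per mouse. The authors deposited, per the labels, the Ct of each well from SDS with a threshold of 0.15 over 40 cycles, without normalization. Wells were named by the array layout. The 15 Undetermined wells in 11 arrays were treated as missing. Precision is limited by the number of arrays.

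Samples were grouped by label. ΔCt used the mean of the 4 reference RNAs. Each ENU group was compared with the 7 controls in limma 3.58.1 (R 4.3.3), 1 fit per PTD over 376 miRNAs, two-sided, with Benjamini-Hochberg adjustment over all of them. Single values were tested by exact permutation, two-sided. Python 3.11.15 with pandas 2.3.3, scipy 1.17.1, numpy 2.4.6 and matplotlib 3.10.9 did the rest. The fits were tested on simulated data.

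The members and lists were chosen with earlier results of these data known. Named were the 2 members, the 5 miRNAs most like each by Pearson's r, list members with an adjusted p under 0.05 at PTDs where a member passed the test (up to 5 per list), and the cell type markers. Alternatives were other reference RNAs, tests, filters, controls, run periods and treatments of high or missing Ct, a replicate block, and each sample left out. Fits without the controls of run period 3, fits joining run period and array median, and list counts within run periods were chosen after seeing the data. No 2 arrays were duplicates: the highest correlation of Ct was 0.989.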

Additional observations from a re-analysis of the deposited data

Results flagged for a closer look

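Consecutive PTDs were compared for each miRNA and for their Ct difference, 15 comparisons in all, and 3 passed the exact permutation test without adjustment. miR-221 was higher at PTD 3 than at PTD 1 by 0.76 (exact permutation p = 0.0476, adjusted p = 0.238), and within run period 1 by 0.67 (exact permutation p = 0.111). miR-222 was lower at PTD 30 than at PTD 15, by -1.55 (exact permutation p = 0.00794, adjusted p = 0.0595), and by -1.99 on the array median scale (exact permutation p = 0.00794). For miR-221 the same step was -0.42 with the reference RNAs (exact permutation p = 0.183) and -0.86 on the array median scale (exact permutation p = 0.0476). The Ct difference of the pair was lower at PTD 30 than at PTD 15, by -1.12 (exact permutation p = 0.00794, adjusted p = 0.0595). PTD 15 lies in run period 1 and PTD 30 in run period 2, so day and run period cannot be told apart for any comparison of these PTDs. None of the 21 groups tested, each group for each miRNA and for their difference, had a sample that stood apart from the rest by Dixon's test.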

How the results depend on the processing

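Directions and calls were kept in 193 of 210 runs that left out 1 sample and in 217 of 264 other runs, over 18 results. miR-222 at PTD 15 kept its call except within the run period on the array median scale (0.74, adjusted p = 0.244). The call of miR-222 at PTD 7 was lost in 10 of 20 other runs: without U6 (1.28), with controls labelled day 1, the same run period or run period as a block (0.87), without the controls of run period 3 (1.08), within the run period on the array median scale (0.66), in the exact test and the methods' t-test on ΔCt (1.34), in that test on linear values (1.17), and with the replicate block (1.36). Its range with 1 sample left out was 1.21 to 1.57, and the call held only without control day 1 replicate 1 or 3. miR-222 at PTD 3 was called in 1 fit of all 7 groups (1.31, adjusted p = 0.0265), and its p at PTD 3 by the methods' t-test was 0.0102 on ΔCt and 0.0297 on linear values, short of the DEM threshold.

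miR-221 at PTD 7 gained a call with the array median (1.17) and with controls labelled day 1, the same run period or a run period block (1.12). At PTD 15 it gained one without snoRNA251 (1.08), in the fit of all groups and with mean Ct at most 30 (0.92), with controls labelled day 1, the same run period or a run period block (1.17), by the t-test on linear values (0.86), and without control day 30 replicate 1 (range 0.77 to 1.08). The sign turned for miR-221 at PTD 1 without replicate 5 (range -0.012 to 0.38), and at PTD 120 with the array median (-0.085), the same run period or period block (-0.11) and both together (-0.090). It turned for miR-222 at PTD 30 with the array median (-0.27), without snoRNA142 (-0.0072), with controls labelled day 1 (-0.32), with the reverse transcription covariate (-0.057), without the controls of run period 3 (-0.12) and without replicate 3 (range -0.12 to 0.45), and at PTD 120 with controls labelled day 30 (0.018).

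For the Ct difference, controls labelled day 1 gave -0.14, -0.40, -0.25, 0.05, -1.07 and -1.38 from PTD 1 to PTD 120, with only the last past the exact test. The same run period gave -0.15, -0.40, -0.25 and 0.13 at PTDs 1, 3, 7 and 30. Controls labelled day 30 gave 1.11, 0.85, 1.00, 1.30 and 0.18 at PTDs 1, 3, 7, 15 and 30, the first 4 past the exact test. Without 1 sample it was 0.45 to 0.77 at PTD 1, 0.34 to 0.66 at PTD 7 and 0.64 to 0.96 at PTD 15. It passed there without control day 1 replicate 3, and at PTD 15 also without control day 1 replicate 1. With the array median, 135 miRNAs in place of 28 were called at PTD 7 and 91 in place of 46 at PTD 15, and the 3 lists gave 16, 9 and 7 calls at PTD 7 in place of 0. With controls labelled day 1 they gave 16, 18 and 9 calls at PTD 30 and 12, 11 and 8 at PTD 120, beside 48.9% and 36.4% of all miRNAs. Apart from the settings' own choice of samples, the causes were not tested.

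Same-numbered samples are different mice and did not deviate together (mean correlation -0.06 to 0.22 over the 6 comparisons). With the replicate block, miR-222 at PTD 7 lost its call (1.36, adjusted p = 0.129) and miR-221 at PTD 1 turned sign (-0.0021), and the other 10 fold changes kept theirs.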
